A study of Harpegnathos saltator with 19 samples.

Results

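The transcript of jhamt (LOC105184533), which encodes juvenile hormone acid methyltransferase, was present in 13 of 19 brain libraries of the ant Harpegnathos saltator and nearly missing from the other 6. The libraries were chosen by their measured jhamt level, with 1 FPKM as the dividing line (FPKM, the unit of the authors' table, is a level per gene length and per library depth). The 13 libraries at or above that level are called libraries with jhamt, and the 6 below it libraries without jhamt. Because jhamt itself made these 2 classes, its levels are described and not tested. The tests concern the remaining genes.

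Each library held poly(A) RNA from the central brain of 1 ant of the worker caste, dissected 10 h after a head injection. According to the labels the ants had received 100 ng of 20-hydroxyecdysone (20E, 7 libraries), 100 ng of juvenile hormone III (JH3, 7 libraries) or the DMSO control (5 libraries). The protocol states a glucose solution as the carrier of both hormones, and the labels give DMSO alone for the control. The sample descriptions carry the run labels 190514 (replicates 1 to 3 of each group) and 200212 (all other replicates).

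Juvenile hormone is a terpenoid hormone made in the corpora allata, small glands that lie behind the insect brain and are joined to it by nerves. The gland cells build farnesyl pyrophosphate through the mevalonate pathway, oxidise it to an acid, and methylate that acid with jhamt in one of the last steps of synthesis. The corpora allata lie next to the corpora cardiaca, which store and release neuropeptides, and to the aorta; together they form the retrocerebral complex. jhamt is used as a marker of the corpora allata. The question was which other transcripts were present in the same libraries as jhamt.

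In the 3 20E libraries with jhamt the gene stood at 1.95 (replicate 3), 3.40 (replicate 4) and 5.58 FPKM (replicate 6). The other 4 20E libraries held 0.0359, 0.0345, 0.0138 and 0.0390 FPKM (replicates 1, 2, 5 and 7). All 7 JH3 libraries had jhamt, with a lowest level of 3.15, a median of 5.28 and a highest of 8.44 FPKM. The DMSO libraries held 4.77, 4.55 and 4.10 FPKM in replicates 1, 3 and 5, and 0.0550 and 0.0221 FPKM in replicates 2 and 4. Thus 3 of 7 20E ants, 7 of 7 JH3 ants and 3 of 5 DMSO ants fell into the class with jhamt.

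Over the classes, jhamt averaged 4.88 ± 1.98 FPKM with the transcript (SD, n = 13) and 0.0334 ± 0.0143 FPKM without it (SD, n = 6). The member just inside the dividing level was 20E replicate 3 at 1.95 FPKM, and the library just outside was DMSO replicate 2 at 0.0550 FPKM. No library lay between them, and a dividing level of 0.5 FPKM would have made the same classes. Reads read back from the table numbered 191 to 983 on jhamt in the class with it and 1 to 6 in the class without it, so no library was at 0 and "without" means below 1 FPKM. Both runs held both classes: 6 libraries with and 3 without jhamt in run 190514, and 7 with and 3 without in run 200212.

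**Figure D1:**
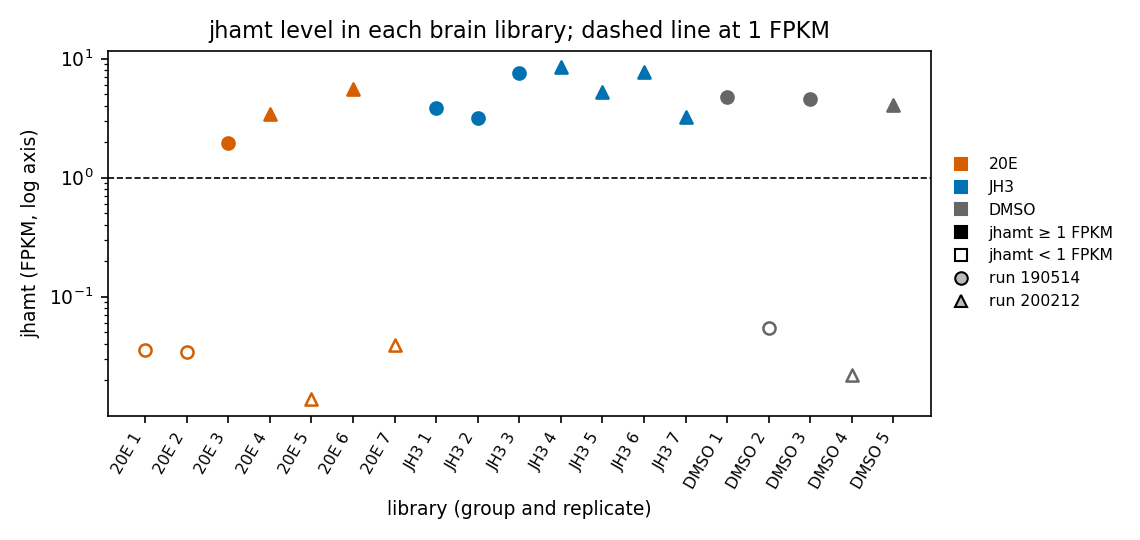
jhamt level (FPKM, log axis) in each of the 19 libraries, 1 point per library, coloured by hormone group, with filled symbols at or above 1 FPKM and open symbols below it. Circles are run 190514 and triangles run 200212. The 13 filled points lie between 1.95 and 8.44 FPKM and the 6 open points between 0.0138 and 0.0550 FPKM.

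Facts of the whole series bear on how these classes can be compared. The reads on genes numbered 13.04 to 25.52 M per library (median 18.27 M), so the depth of the classes overlapped. Far more genes differed by run label than by class: 4684 of 9380 tested genes (49.9%) differed between the runs by limma. 20E replicate 6 stood apart in the scaling of its values, with the lowest ratio of the authors' scaling to total reads (0.763, against up to 1.12 elsewhere), and JH3 replicate 1 had the highest summed ribosomal protein level of its group. In bulk tissue, fewer cells of a type and less RNA per cell cannot be told apart. The ants are separate individuals, so the p-values measure the spread between ants of the same group and run.

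The class was fitted to log2(FPKM + 0.5) with the hormone group and the run label as further terms, so that a class difference is the level with jhamt minus the level without it at a given hormone and run. A gene was tested if it reached 1 FPKM in at least 5 libraries. As no JH3 library lacked jhamt, the class difference rests on the 20E libraries (3 with, 4 without) and the DMSO libraries (3 with, 2 without); the JH3 libraries add to the estimate of the run and of the spread. Of the 9380 genes tested, 1 passed a Benjamini-Hochberg adjusted p of 0.05 by limma's moderated test (0.0107%). It was higher with jhamt. The unadjusted p was under 0.05 for 81 genes (0.864%), 45 higher and 36 lower with jhamt. That is fewer than the 1 in 20 that fall under 0.05 on average when no gene differs. An unadjusted p under 0.05 is therefore given below as a description only. The median difference over all tested genes was 0.00 on the log2 scale, and 52.4% of the estimates were above 0.

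The gene that passed was LOC105187618, a protein-coding gene with no symbol in the RefSeq table, for which no role is given here. In the 20E libraries with jhamt it held 1.44, 2.28 and 9.93 FPKM (replicates 3, 4 and 6). The 20E libraries without jhamt held 0, 0.145, 0 and 0 FPKM (replicates 1, 2, 5 and 7). Its JH3 levels had a lowest of 1.58, a median of 3.38 and a highest of 6.21 FPKM. The DMSO libraries with jhamt held 3.52, 1.63 and 2.65 FPKM (replicates 1, 3 and 5), against 0.174 and 0.0233 FPKM in those without (replicates 2 and 4). The classes did not overlap: the lowest library with jhamt was 8.29 times the highest library without it.

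LOC105187618 averaged 3.55 ± 2.40 FPKM with jhamt (SD, n = 13) and 0.0571 ± 0.0804 FPKM without it (SD, n = 6), a ratio of means of 62.1. The fitted difference was 2.63 ± 0.36 on the log2(FPKM + 0.5) scale (SE; limma, adjusted p = 0.00998), which understates the change of a gene this low. The plain difference of log2 class means, with no run term, was 2.85 within the 20E libraries and 2.34 within the DMSO libraries. The fitted difference was 1.95 within run 190514 and 3.15 within run 200212. Each run taken alone left the gene short of the threshold (limma, adjusted p = 0.9994 and 0.592). The fitted difference was 2.22 without 20E replicate 6 and JH3 replicate 1 (limma, adjusted p = 0.00401), so the call did not rest on those libraries. Leaving out DMSO replicate 4, 1 of the 2 DMSO libraries without jhamt, ended the call with little change in size (2.56; limma, adjusted p = 0.0865). With whole reads in limma's voom the difference was 5.99 and just missed the threshold (adjusted p = 0.0530), and with a pseudocount of 0.1 it was 4.35 and passed. A pseudocount of 1 ended the call (1.92; limma, adjusted p = 0.0855), as did a dividing level of 2 FPKM (2.69; limma, adjusted p = 0.0878) and leaving out the JH3 libraries (2.63; limma, adjusted p = 0.166).

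A pair of further measures described how closely a gene followed jhamt: whether the classes overlapped, and the Pearson correlation r with jhamt over the 19 libraries after hormone group and run had been taken out of both. The points share their library and its scaling, the correlation includes the gap between classes, and it is given as a description without a p. All 13 libraries with jhamt lay above all 6 without it for 3 tested genes (0.032%), and below them for 0. The 3 genes were LOC105187618, LOC105189116 and LOC105181826. Over the 13216 genes with any read, expressed or not, the number above was again 3 (0.0227%), and the number below is not given. The filter of 1 FPKM in at least 5 libraries favours genes high in the larger class, that with jhamt. LOC105187618 and LOC105181826 passed the filter only through libraries with jhamt, as did LOC105189170 and LOC105187123, described below. The counts above and below are thus not on equal terms. With no filter on low values, LOC105187618 passed with an adjusted p of 0.0229 by limma. LOC105187618 had the highest r (0.94), followed by LOC105189116 (0.84), form3 (0.77) and LOC105181826 (0.75). Those were the 4 tested genes with an r of at least 0.7, and no tested gene had an r of -0.7 or lower. Within the 13 libraries with jhamt alone, the gap between classes plays no part. There the plain correlation of log2 levels, with hormone group and run left in, was taken. It was 0.70 for LOC105187618, 0.57 for LOC105189116, 0.59 for LOC105181826 and 0.21 for form3.

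LOC105189116, protein-coding and likewise without a symbol, held 3.20, 2.37 and 9.52 FPKM in the 20E libraries with jhamt. The 20E libraries without it held 0.0231, 0.333, 0.0266 and 2.28 FPKM (replicates 1, 2, 5 and 7). The JH3 libraries had a lowest of 2.32, a median of 4.98 and a highest of 5.23 FPKM. In DMSO ants the libraries with jhamt held 4.35, 2.75 and 4.12 FPKM, against 1.18 and 0.0853 FPKM in those without. The classes were separated by a narrow step, 2.32 FPKM in JH3 replicate 7 with jhamt against 2.28 FPKM in 20E replicate 7 without it. The mean was 4.25 ± 1.92 FPKM with jhamt (SD, n = 13) and 0.656 ± 0.911 FPKM without it (SD, n = 6). The fitted difference of 2.27 ± 0.41 (log2, SE) missed the threshold (limma, adjusted p = 0.165). The gene passed when 20E replicate 7 was left out (limma, adjusted p = 0.0126). It also passed when the log2 level of jhamt replaced the classes, with a slope of 0.75 ± 0.12 (log2 per log2, SE, limma, adjusted p = 0.0325). These were among the 4 of 40 alternatives in which LOC105189116 passed.

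LOC105181826, the last of the genes whose classes did not overlap and protein-coding too, varied far more among the libraries with jhamt. It held 0.131, 0.332 and 14.3 FPKM in the 20E libraries with jhamt, and 0, 0, 0 and 0.0581 FPKM in those without. Its JH3 levels had a lowest of 0.143, a median of 2.02 and a highest of 4.39 FPKM. The DMSO libraries with jhamt held 3.77, 1.23 and 1.94 FPKM, and those without held 0.0409 and 0 FPKM. At most 1 read fell on the gene in any library without jhamt, and 3 to 221 reads in the libraries with it. Its difference of 2.10 ± 0.63 (log2, SE) had an unadjusted p of 0.00375 by limma and was not past the threshold.

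The ratio of each gene to jhamt within the 13 libraries shows how fixed the proportion was. LOC105189116 ran from 0.591 to 1.71 times the jhamt level (FPKM over FPKM, median 0.724), a 2.89-fold span. LOC105187618 ran from 0.359 to 1.78 (median 0.672), a 4.96-fold span. LOC105181826 ran from 0.0445 to 2.56 (median 0.364), a 57.4-fold span. The highest ratio of all 3 genes was in 20E replicate 6. Jointly, after hormone and run were taken out, LOC105187618 correlated with LOC105181826 at r = 0.87 and with LOC105189116 at r = 0.85 over the 19 libraries.

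**Figure D2:**
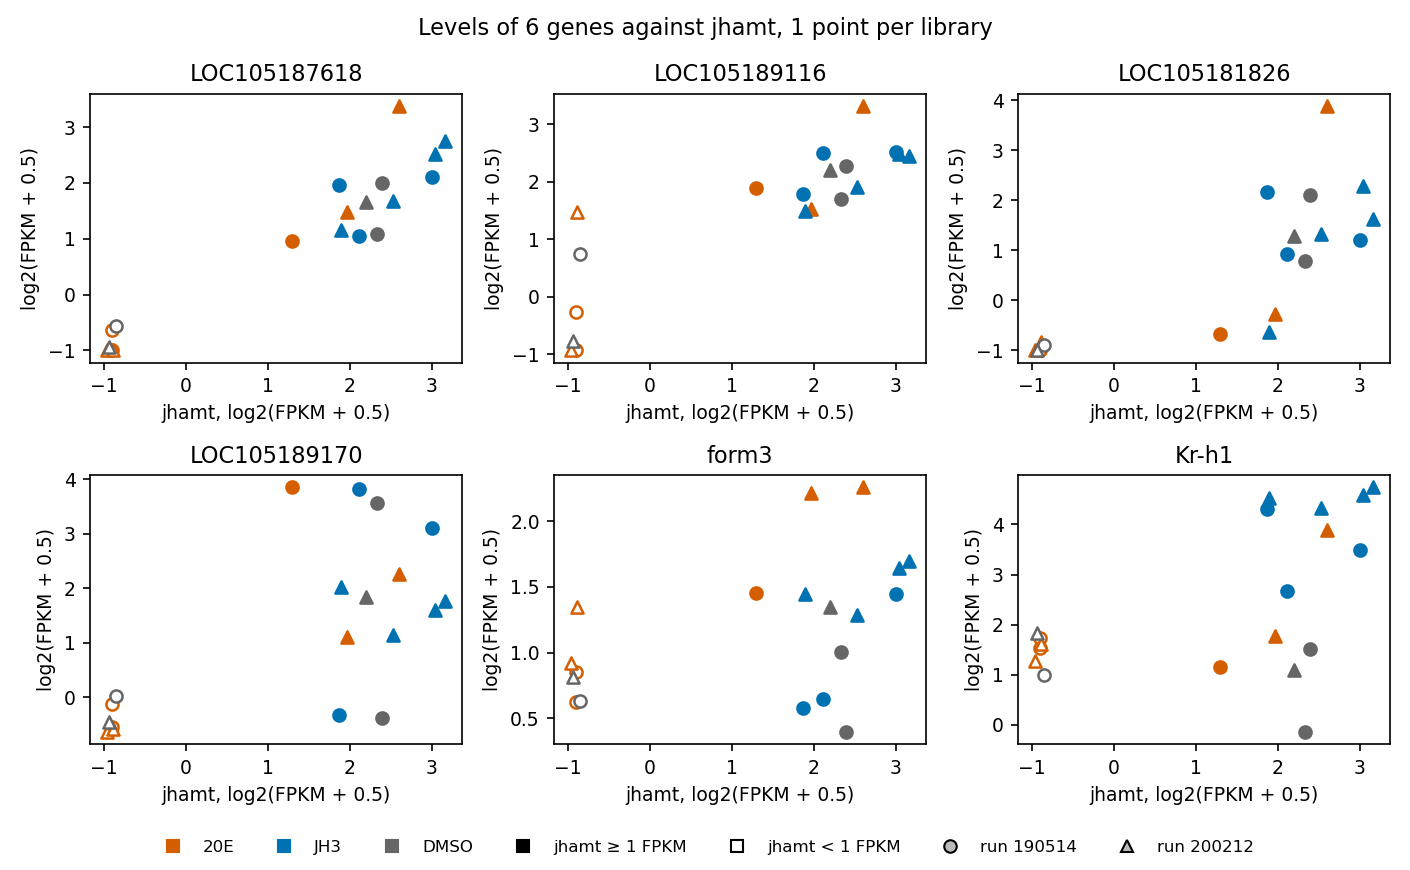
Levels of 6 genes against jhamt, both as log2(FPKM + 0.5), 1 point per library, coloured by hormone group, filled with jhamt and open without it, with circles for run 190514 and triangles for run 200212. Every filled point of LOC105187618, LOC105189116 and LOC105181826 lies above every open point, while LOC105189170, form3 and Kr-h1 overlap between the classes.

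LOC105189170 was chosen after its values were seen, because its difference was nearly as large as that of the gene that passed. It held 13.9, 1.66 and 4.31 FPKM in the 20E libraries with jhamt and 0.140 to 0.414 FPKM in those without. The JH3 libraries had a lowest of 0.292, a median of 2.89 and a highest of 13.7 FPKM. The DMSO libraries with jhamt held 0.269, 11.3 and 3.06 FPKM, against 0.510 and 0.224 FPKM in those without. So 11 of the 13 libraries with jhamt had 1.66 FPKM or more of LOC105189170, and JH3 replicate 2 and DMSO replicate 1 had jhamt but no more of this gene than a library without jhamt. With no library without jhamt above 0.510 FPKM, LOC105189170 entered the test only through libraries with jhamt. Its difference was 2.50 ± 0.67 (log2, SE; unadjusted p = 0.00161 by limma, not past the threshold), and its r with jhamt was 0.64. Its ratio to jhamt spanned 126-fold.

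LOC105187123, which also entered the test only through libraries with jhamt (at most 0.728 FPKM without it), had an r of 0.85 to LOC105189170 and 0.68 to jhamt. It was lowest among the libraries with jhamt in the same pair of libraries, DMSO replicate 1 (0.385 FPKM) and JH3 replicate 2 (0.565 FPKM) and highest in JH3 replicate 1 (3.47 FPKM). It averaged 1.62 ± 0.89 FPKM with jhamt (SD, n = 13) and 0.464 ± 0.143 FPKM without it (SD, n = 6), and the classes overlapped (difference 1.02 ± 0.32, log2, SE; unadjusted p = 0.00527 by limma, not past the threshold). By contrast, LOC105181826 correlated with LOC105189170 at r = 0.23. No test compared these correlations.

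Among genes with a symbol, the 8 of lowest p in each direction are given, although none passed the threshold; the functions are those of the fly genes of the same name. The 8 with higher estimates with jhamt, all at an unadjusted p under 0.05, included form3, an actin-assembling formin, shf, an extracellular Hedgehog cofactor, Polr1C, a subunit shared by RNA polymerases I and III, and egr, the fly tumour necrosis factor. The rest of these 8 were Tsp (thrombospondin, an extracellular matrix protein), Mdr49 (an ABC transporter), Atg10 (autophagy) and MICAL-like. form3 had the highest r of any gene with a symbol. It averaged 2.22 ± 1.07 FPKM with jhamt (range 0.816 to 4.28, SD, n = 13) and 1.35 ± 0.37 FPKM without it (range 1.04 to 2.04, SD, n = 6), a difference of 0.67 ± 0.18 (log2, SE; unadjusted p = 0.00132 by limma). The level of form3 overlapped between the classes, and its difference was 1.04 within 20E libraries and 0.19 within DMSO libraries. egr stood at 20.7 ± 2.66 FPKM with jhamt and 17.2 ± 3.18 FPKM without it (SD, n = 13 and 6), a difference of 0.30 ± 0.12 (log2, SE). Mdr49 had a difference of -0.21 in run 190514 and 1.53 in run 200212.

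The 8 with lower estimates with jhamt, all at an unadjusted p under 0.05, were CPR5, Cda4 (a chitin deacetylase of the cuticle), oaf, ninaC, chp, CarT (a carcinine transporter of photoreceptors), Fsn (an F-box protein of synapse growth) and Gcn2 (a stress kinase that phosphorylates an initiation factor). CPR5 held 2.77, 3.97 and 6.67 FPKM (lowest, median and highest) with jhamt, against 4.86, 7.26 and 15.2 FPKM without it. The classes of CPR5 overlapped, with a difference of -0.74 ± 0.23 (log2, SE; unadjusted p = 0.00588 by limma) that was -0.62 within 20E and -0.89 within DMSO. The lowest r of all tested genes were those of LOC112590067 (-0.67), oaf (-0.65) and CPR5 (-0.65).

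None of the other juvenile hormone synthesis genes that could be tested by symbol passed for the class. Cyp15a1, Fpps and Sdr were also on the list but had no such symbol in the RefSeq table. They were not analysed, so whether they followed jhamt was not tested. Of the 11 list members that the table names and that were tested, 0 passed in either direction by limma and 0 had an unadjusted p under 0.05 (against 0.0107% and 0.864% of all tested genes). By voom on whole reads, no gene at all passed. The differences of these members ran from -0.29 to 0.35 on the log2 scale with a median of -0.04 (0.00 over all tested genes), 4 above 0 and 7 below. The members jointly held a lowest of 172.8, a median of 190.9 and a highest of 210.7 FPKM with jhamt, against 169.0, 178.8 and 208.2 FPKM without it.

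The mevalonate pathway runs from acetoacetyl-CoA to the isoprenoid building blocks. Hmgs, which makes HMG-CoA, averaged 8.64 ± 1.46 FPKM with jhamt and 8.74 ± 1.18 FPKM without it (SD, n = 13 and 6; difference -0.01 ± 0.08, log2, SE). The classes overlapped over nearly the whole range of Hmgs. The kinase Pmvk averaged 3.54 ± 0.97 FPKM with jhamt and 3.69 ± 0.70 FPKM without it, with a difference of -0.29 ± 0.20 that was -0.70 within 20E and 0.29 within DMSO. The decarboxylase Mvd averaged 8.48 ± 1.70 FPKM with jhamt and 8.19 ± 1.48 FPKM without it (difference -0.14 ± 0.18). The isomerase Idi averaged 29.6 ± 6.48 FPKM with jhamt and 29.4 ± 3.52 FPKM without it (difference -0.04 ± 0.09).

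The other members had differences of similar size, none past the threshold. The thiolases Acat1 (difference 0.15 ± 0.10) and Acat2 (0.07 ± 0.07) supply acetoacetyl-CoA. The prenyl transferase qm had a difference of -0.10 ± 0.09, the aldehyde dehydrogenase Aldh-III 0.08 ± 0.08, and the sterol transporter Npc1a -0.07 ± 0.08 (all log2, SE). Cpr, the electron donor of cytochromes P450, had the largest difference of the list at 0.35 ± 0.24. It was -0.12 in run 190514 and 0.73 in run 200212. As background, the mevalonate pathway runs in most animal cells and not in the corpora allata alone.

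**Figure D3:**
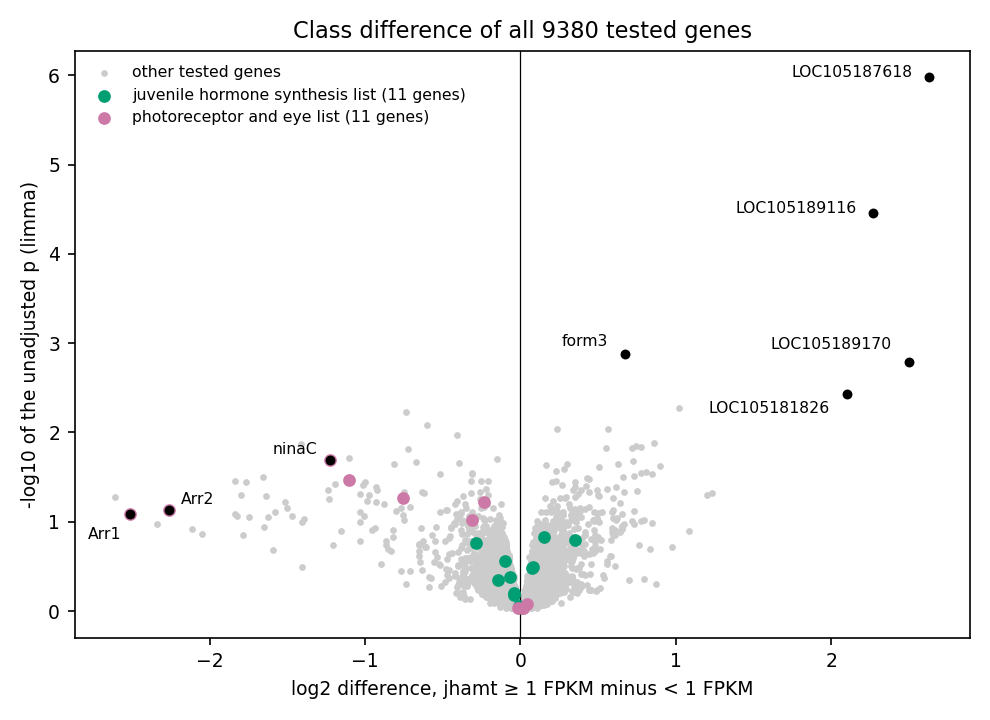
Class difference of the 9380 tested genes (horizontal axis, log2 level with jhamt minus without it) against the -log10 of the unadjusted limma p (vertical axis), 1 point per gene. LOC105187618 is the highest point at 2.63, the 11 juvenile hormone synthesis genes lie between -0.29 and 0.35, and the photoreceptor genes Arr1, Arr2 and ninaC lie on the left.

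Markers of the neighbouring tissues were then read in the same fit. Of 12 neurosecretory peptides and peptide processing enzymes, 0 passed and 0 had an unadjusted p under 0.05 by limma (0.0107% and 0.864% of all tested genes). Their median difference was 0.01, from -0.17 to 0.14. Crz, the neuropeptide corazonin, averaged 25.4 ± 7.92 FPKM with jhamt and 25.8 ± 8.25 FPKM without it (SD, n = 13 and 6). The insulin-like peptide gene ILP-2 averaged 10.3 ± 4.57 FPKM with jhamt and 12.9 ± 2.74 FPKM without it, with a difference of 0.14 ± 0.13 once hormone and run were terms. The adipokinetic hormone gene, which marks the corpora cardiaca, had no symbol in the table and was not analysed here. Many of these peptides are also made by neurons of the brain itself.

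For aorta, heart and haemocytes, 0 of 7 tested members passed and 1 had an unadjusted p under 0.05 by limma (0.0107% and 0.864% of all tested genes). That gene was SPARC, a basement membrane protein, at 94.9 ± 51.8 FPKM with jhamt and 61.9 ± 31.8 FPKM without it (SD, n = 13 and 6; difference 0.75 ± 0.35, log2, SE). The summed level of the list had a lowest of 89.6, a median of 119.3 and a highest of 266.3 FPKM with jhamt, against 68.8, 103.5 and 144.3 FPKM without it. Col4a1, a collagen of basement membranes, differed by 0.52 ± 0.35. Hml, a haemocyte protein, differed by 0.03 ± 0.13. Both were short of the threshold.

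Of the photoreceptor and eye genes, 8 of 11 tested had estimates below 0, while 52.4% of all estimates were above 0. None passed: 0 had an adjusted p under 0.05 and 2, ninaC and chp, had an unadjusted p under 0.05 by limma, both with lower estimates with jhamt (0.0107% and 0.864% of all tested genes). ninaC, a myosin kinase of photoreceptors, averaged 0.923 ± 0.839 FPKM with jhamt and 2.06 ± 1.33 FPKM without it (SD, n = 13 and 6; difference -1.23 ± 0.48, log2, SE). chp, a surface protein of photoreceptors, averaged 3.74 ± 2.31 FPKM with jhamt and 7.64 ± 3.33 FPKM without it (difference -1.11 ± 0.48). The largest difference of the list was that of the arrestin Arr1 (-2.51 ± 1.36), which was not past even the unadjusted threshold. The list median was -0.31, against 0.00 over all tested genes. The summed eye level had a lowest of 62.5, a median of 173.2 and a highest of 453.2 FPKM with jhamt, against 104.1, 454.4 and 514.6 FPKM without it, so the classes overlapped over most of the range. With the mean level of the eye list as a further term, LOC105187618 differed by 2.70 ± 0.41 and no longer passed (limma, adjusted p = 0.0632). The part of eye tissue in the class difference was not tested beyond that.

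**Figure D4:**
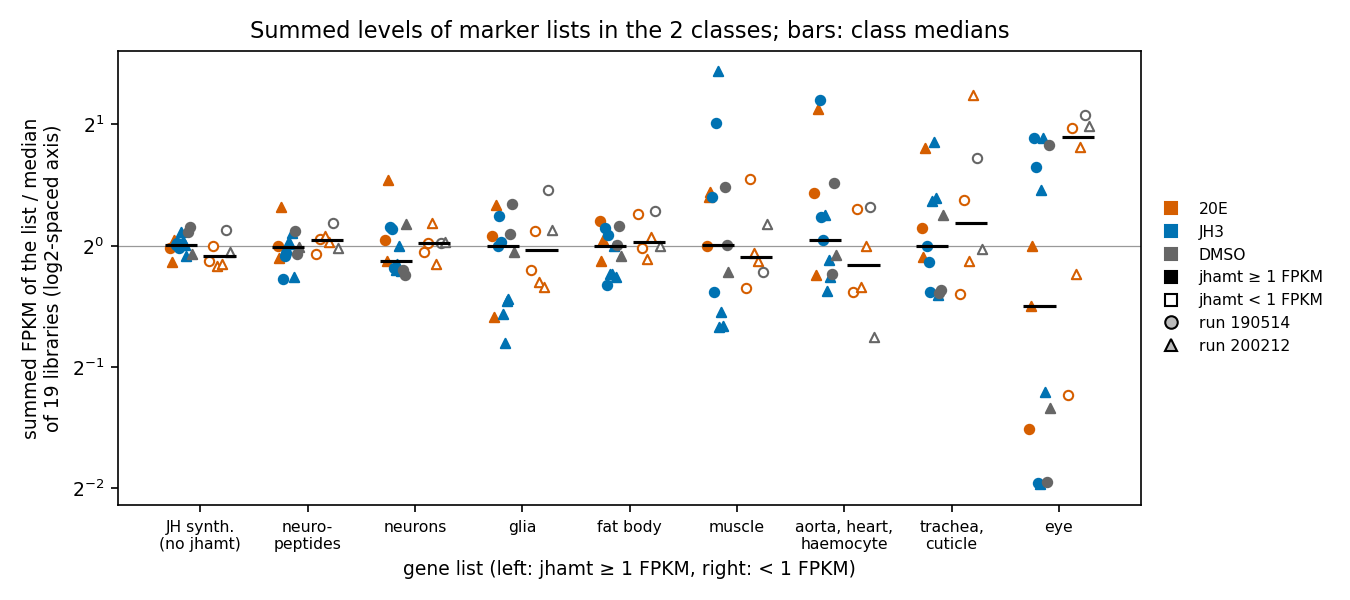
Summed FPKM of 9 marker lists, divided by the median of the 19 libraries (log2-spaced axis), for the libraries with jhamt (left in each pair, filled) and without it (right, open), 1 point per library, with a bar at the class median. The eye list has the widest spread, with class medians of 173.2 and 454.4 FPKM before division; the juvenile hormone synthesis list, jhamt left out, has medians of 190.9 and 178.8 FPKM.

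The summed levels of neuronal and glial markers overlapped between the classes. The neuronal list summed to a median of 1154 FPKM with jhamt (1062 to 1831) and 1275 FPKM without it (1133 to 1427), and the highest value was that of 20E replicate 6. The glial list summed to a median of 933.5 FPKM with jhamt and 913.7 FPKM without it. Over 20 gene lists, 0 of 250 tested members passed by limma, with a gene counted once in each list that holds it. An unadjusted p under 0.05 by limma was found for 3 (SPARC, ninaC and chp). These counts are near the background of 0.0107% and 0.864% over all tested genes. List medians lay between -0.31 (eye) and 0.16 (juvenile hormone response).

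Kr-h1, the zinc finger factor that responds to juvenile hormone, shows how the class and the hormone lie across each other. Its plain means were 11.6 ± 9.69 FPKM with jhamt and 2.38 ± 0.60 FPKM without it (SD, n = 13 and 6), but all 7 JH3 libraries are in the class with jhamt. Within the 20E libraries it held 1.72, 2.91 and 14.4 FPKM with jhamt and 2.83, 2.40, 1.91 and 2.58 FPKM without it. Within the DMSO libraries it held 2.34, 0.405 and 1.63 FPKM with jhamt, against 1.49 and 3.09 FPKM without it. The classes overlapped in both groups. The fitted class difference was 0.16 ± 0.39 (log2, SE, unadjusted p = 0.691 by limma). The plain difference of log2 class means was 0.73 within 20E and -0.60 within DMSO. The value of 14.4 FPKM was that of 20E replicate 6, which also had the highest jhamt level of the 20E group.

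The class also entered the hormone comparisons, since it was spread unevenly over the groups. With the class as a term, 279 genes (2.97%) differed between 20E and DMSO by limma, 221 higher and 58 lower with 20E. Without the class the number was 313, and 277 genes were called both ways. For JH3 against DMSO, 56 genes (0.597%) passed with the class as a term, 40 higher and 16 lower with JH3, against 87 without the class. All 56 were among those 87. Because no JH3 library lacked jhamt, the JH3 value with the class as a term assumes that the class difference seen in 20E and DMSO ants holds in JH3 ants.

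Known hormone targets moved little. The difference of E75, an early ecdysone response gene, between 20E and DMSO was 2.99 with the class and 2.96 without it (log2). The difference of Kr-h1 between JH3 and DMSO was 2.83 ± 0.43 with the class (SE; limma, adjusted p = 0.0021) and 2.90 ± 0.39 without it. Hr4, a nuclear receptor of the ecdysone cascade, had a JH3 difference of 0.59 ± 0.15 with the class, which was short of the threshold (limma, adjusted p = 0.133), and 0.63 ± 0.14 without it. Over all tested genes the JH3 difference shifted by a median of 0.02 and at most 1.04, and the 20E difference by a median of 0.01 and at most 0.46 (log2).

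The class difference was compared between the runs with an interaction term. By limma 0 of 9380 genes passed and 279 had an unadjusted p under 0.05; the lowest adjusted p was 0.0755, for LOC105191251. LOC105187618 was higher with jhamt in both runs, and so were LOC105189116 (1.86 in run 190514 and 2.43 in run 200212) and LOC105181826 (1.33 and 2.58). Each run held 3 libraries without jhamt.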

How the data were processed

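Libraries kept the strand (dUTP marking) and came from poly(A) RNA of single central brains, per the labels' protocols. The authors deposited FPKM values for 14001 genes and 19 libraries; per the submitters' processing notes, the tools were STAR, featureCounts, bcl2fastq and DESeq2, in no stated order. Their versions and the genome build are not stated in those notes or headers, so no coordinates are printed. Symbols came from the RefSeq table of Hsal_v8.6, which matched 13989 identifiers and left 12 unmatched.

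Whole reads could be read back from the FPKM grid for all 13217 genes with any value (100%, within 0.02 of a whole number). They gave the depths and an alternative test with voom on those reads, which called 0 genes for the class. Depth limits genes near 1 FPKM most, and read numbers cover counting error only.

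Genes at 1 FPKM or more in at least 5 libraries were tested (9380, jhamt left out) on log2(FPKM + 0.5) with limma 3.58.1 in R 4.3.3, using class, hormone group and run as terms and a trended prior variance. P-values (two-sided) were adjusted by Benjamini-Hochberg over all tested genes, with a threshold of 0.05. Differences within a run came from separate fits of the same kind. Differences within a hormone group were plain differences between class means of log2(FPKM + 0.5), with no run term. The fit was tested on simulated data of the same size, where 98% of genes changed by 2 on the log2 scale were recovered and 12 of 9180 unchanged genes were called. The simulated data held no run or hormone effect and had many genes changed at once. These shares therefore do not measure how many real differences the fit would find.

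Named genes were those past the threshold, the lowest p with a symbol up to 8 in each direction, the juvenile hormone synthesis list, Kr-h1, list members of lowest p, and the genes most like jhamt. A member of the juvenile hormone synthesis list that the rule names is counted but not reported here by itself. The division of the libraries, the lists and the rules were chosen with earlier results of these data known. Alternatives covered the dividing level, pseudocount, filter, terms, scaling, weights, voom, subsets and each library left out. Python 3.11.15, numpy 2.4.6, pandas 2.3.3 and matplotlib 3.10.9 handled tables and figures.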

Additional observations from a re-analysis of the deposited data

Results flagged for a closer look

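In 4 of 72 groups of 6 or 7 values examined, 1 library lay far from the others by Dixon's 95% criterion, which chance gives in about 1 in 20 groups. Among the 6 libraries without jhamt, form3 in 20E replicate 7 was at 2.04 FPKM, with the nearest other value at 1.39 FPKM. Among the same libraries, Mvd in DMSO replicate 2 was at 5.40 FPKM, with the nearest at 7.99 FPKM. In the JH3 group, replicate 1 had a summed aorta, heart and haemocyte level of 266.3 FPKM, with the nearest library at 138.3 FPKM. The same JH3 replicate 1 had a summed ribosomal protein level of 6882 FPKM, with the nearest at 4255 FPKM.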

How the results depend on the processing

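The number of genes called for the class, 1 as reported, was small under every alternative. It was 0 with a dividing level of 2 FPKM, a pseudocount of 1, voom on reads (with the filter, or with a minimum of 10 reads), the eye list level as a term, without the JH3 libraries, in the 20E and JH3 libraries only, in run 190514 alone and in run 200212 alone; the eye term and the second voom fit were chosen after seeing the data. It was 2 with log2 jhamt as a continuous term, without the hormone term and with library weights, LOC105189116 being the second gene each time. With 1 library left out it ran from 0 (without DMSO replicate 4) to 2 (without 20E replicate 7). Where 0 genes passed by limma or voom, 61 to 367 had an unadjusted p under 0.05. LOC105187618 kept its direction in all 40 alternatives and passed in 29; without voom and the continuous term its difference ran from 1.92 to 4.35.

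The replicate block, with the replicate number in place of the run, gave 0 class calls and 2.53 for LOC105187618 (limma, adjusted p = 0.0713). Of 17 pairs with the same number, 6 had a correlation over 0.1 (from -0.38 to 0.50) after group and run were removed. Pairs with unlike numbers were not set beside them, so whether the numbers pair the samples was not tested.

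The 20E count was 165 without the run term and 184 to 315 with 1 library left out (184 without DMSO replicate 4, 185 without 20E replicate 3). The JH3 count was 87 without the class and 35 without the run term, and 38 to 84 with 1 library left out. The interaction with the run gave 1 gene with a dividing level of 2 FPKM, 1 with log2 jhamt as a continuous term, and 0 to 2 with 1 library left out (1 without 20E replicate 3, 2 without 20E replicate 6). Why these values moved was not tested. Of 4080 alternative values of 102 named genes, 0 reversed a called direction, and 211 values in 60 genes that were uncalled throughout changed sign. The 6 libraries without jhamt and the absence of such a library in the JH3 group limit the class comparison, and genes near 1 FPKM rest on few reads.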

Other observations

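Genes too low for the test were read for likeness to jhamt, chosen after their values were seen. LOC105188137, annotated as a long non-coding RNA, had an r of 0.79 with jhamt over the 19 libraries after hormone and run were taken out. That r includes the gap between the classes. Within the 13 libraries with jhamt alone, the plain correlation of log2 levels was -0.51, so LOC105188137 did not rise with jhamt there. It averaged 0.146 ± 0.028 FPKM with jhamt (SD, n = 13, 12 to 30 reads) and 0.0667 ± 0.0224 FPKM without it (SD, n = 6, 7 to 13 reads). The highest library without jhamt, 20E replicate 1 at 0.104 FPKM, lay level with the lowest with it, at 0.103 FPKM. With no filter on low values it was short of the threshold (limma, adjusted p = 0.161).

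Hand, a transcription factor of the fly heart and lymph gland, averaged 0.155 ± 0.078 FPKM with jhamt and 0.0391 ± 0.0353 FPKM without it (SD, n = 13 and 6), from at most 13 reads in a library, and the classes overlapped. dib, an ecdysteroid synthesis enzyme in the fly, averaged 0.181 ± 0.093 FPKM with jhamt and 0.0482 ± 0.0343 FPKM without it, from at most 30 reads. The classes of dib overlapped too, with 0.0753 FPKM in JH3 replicate 6 and 0.0897 FPKM in 20E replicate 7, a library without jhamt. Within the libraries with jhamt alone, the plain correlation with jhamt was 0.28 for Hand and 0.04 for dib. The other genes of the ecdysteroid synthesis list below the filter lay closer: sro averaged 0.409 ± 0.086 FPKM with jhamt and 0.453 ± 0.111 FPKM without it, and sad 0.107 ± 0.060 FPKM with it and 0.109 ± 0.041 FPKM without it. nvd averaged 0.740 ± 0.169 FPKM with jhamt and 0.681 ± 0.174 FPKM without it, and shd 0.109 ± 0.068 FPKM with it and 0.0864 ± 0.0454 FPKM without it. Neither Hand nor dib passed with no filter (limma, adjusted p = 0.9999 for both).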
